A study of Mus musculus with 40 samples.

Results

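The MHC class I presentation genes are 10 named genes, *H2-K1*, *H2-D1*, *B2m*, *Tap1*, *Tap2*, *Tapbp*, *Psmb8*, *Psmb9*, *Psmb10* and *Nlrc5*. They were taken by symbol from the 27179 genes of the deposited expression table by a rule that uses no measured value, although the set was chosen with earlier results of these data known. RNA was sequenced from bone marrow-derived macrophages (BMDMs), cells grown from the bone marrow of adult mice for 7 days with L-cell conditioned medium as the source of M-CSF. The mice were males of a mixed C57BL/6J and 129 background, either wildtype (WT) or *Cpeb4* knockout (*Cpeb4*-/-), and the knockout removes an RNA-binding protein that acts on translation and stability of its target mRNAs. BMDMs of 4 mice per genotype were left unstimulated (0 hr) or were given 10 ng/ml of lipopolysaccharide (LPS, a bacterial cell wall component) for 1, 3, 6 or 9 hr, which gave 40 libraries in 10 groups of 4. Mice 25 and 88 (WT) and 3 and 62 (*Cpeb4*-/-) were in batch 1, and mice 69 and 87 (WT) and 2 and 55 (*Cpeb4*-/-) were in batch 2. No cage held both genotypes, so cage and genotype cannot be told apart.

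Class I molecules show peptides from inside the cell to CD8 T cells. Immunoproteasome subunits cut cytosolic proteins into peptides, the TAP transporter carries them into the endoplasmic reticulum, tapasin helps load them, and a heavy chain paired with beta-2-microglobulin takes them to the surface. Type I interferon made by macrophages after LPS, and interferon gamma made by lymphocytes, are both known to raise the transcripts of this pathway, and *Nlrc5* encodes a transactivator of class I promoters.

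Values are regularized log2 (rlog) counts as deposited, on which a difference of 1 is a doubling. A gene was called where limma gave a Benjamini-Hochberg adjusted p under 0.05 over all genes tested. The table holds no read counts, so the depth behind each value is unknown here. All 10 genes passed the filter on low values (mean rlog at least log2 of 5), as did 13103 genes over the 40 libraries. Replicate libraries correlated at Pearson r of 0.9978 to 0.9992 across genes, and no pair was identical. All 8 macrophage markers were present, led by *Lyz2*. Of markers of other cells, 0 of 5 T cell, 0 of 4 NK cell, 1 of 5 B cell (*Cd79b*), 1 of 5 neutrophil (*Camp*), 1 of 5 fibroblast (*Dcn*) and 2 of 5 dendritic cell genes (*Xcr1* and *Zbtb46*) passed the filter. The NK cell gene *Klrb1c* was under the filter but did not overlap between the genotypes at 0, 1 and 3 hr, for example at 1.35, 1.56, 1.36 and 1.34 in WT and 3.23, 3.34, 2.70 and 3.13 in the libraries labelled *Cpeb4*-/- at 3 hr. Its part in the results was not tested. *Ifng*, the gene for interferon gamma, lay between −0.48 and 1.64 in every library, at the bottom of the scale. *Cpeb4* itself separated the genotypes at 6 hr, with 10.42, 10.67, 10.09 and 10.62 in WT against 8.87, 9.45, 9.66 and 8.74 in *Cpeb4*-/- (−1.27, SE 0.19, adjusted p = 0.00114). At 0, 1, 3 and 9 hr its values overlapped between the genotypes. Directions at those times therefore rest on the labels, and the libraries are called there the libraries labelled *Cpeb4*-/-.

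The promoters of *H2-K1*, *H2-D1* and *B2m* are shown because the products form the surface molecule itself, and that of *Tap1* because *Psmb9* shares it. For 8 of the 10 genes, promoters of 300 bases were matched in RefSeq (build GRCm38.p6, the same as mm10), from 250 bases before to 50 after the start site. *Tap2* and *Nlrc5* had no entry. Capitals mark matches, on either strand, to an interferon regulatory factor core (AANNGAAA), a kappa-B motif (searched by name), a site alpha core (TGACG) or a gamma-activated site (TTCNNNGAA). The CCAAT box, spelled as in its name, is marked too. The *H2-K1* promoter is at chr17:34000298-34000597 on the minus strand, *H2-D1* at chr17:35262844-35263143 on the plus strand, *B2m* at chr2:122147437-122147736 on the plus strand and *Tap1* at chr17:34187306-34187605 on the plus strand, each printed 5′ to 3′ on its own strand. For *H2-K1* the RefSeq table has 2 start sites, both inside the outer end of the gene, and the window shown belongs to the one 272 bases from that end.
H2-K1: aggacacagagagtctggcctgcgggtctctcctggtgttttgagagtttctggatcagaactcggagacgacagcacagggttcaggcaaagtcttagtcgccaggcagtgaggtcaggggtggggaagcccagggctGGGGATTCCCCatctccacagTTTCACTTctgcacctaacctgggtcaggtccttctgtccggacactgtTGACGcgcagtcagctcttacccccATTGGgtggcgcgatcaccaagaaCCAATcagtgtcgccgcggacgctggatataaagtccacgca
H2-D1: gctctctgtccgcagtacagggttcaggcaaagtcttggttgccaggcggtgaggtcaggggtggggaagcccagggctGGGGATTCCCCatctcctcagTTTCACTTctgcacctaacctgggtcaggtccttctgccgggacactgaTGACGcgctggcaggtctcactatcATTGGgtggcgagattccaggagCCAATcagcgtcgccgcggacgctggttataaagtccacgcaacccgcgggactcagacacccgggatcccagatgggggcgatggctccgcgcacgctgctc
B2m: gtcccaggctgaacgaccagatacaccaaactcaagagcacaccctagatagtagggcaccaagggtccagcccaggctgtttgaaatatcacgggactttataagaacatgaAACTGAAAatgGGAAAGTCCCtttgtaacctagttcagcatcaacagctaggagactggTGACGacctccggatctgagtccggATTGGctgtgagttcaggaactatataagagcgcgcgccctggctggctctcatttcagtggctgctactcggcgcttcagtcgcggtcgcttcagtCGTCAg
Tap1: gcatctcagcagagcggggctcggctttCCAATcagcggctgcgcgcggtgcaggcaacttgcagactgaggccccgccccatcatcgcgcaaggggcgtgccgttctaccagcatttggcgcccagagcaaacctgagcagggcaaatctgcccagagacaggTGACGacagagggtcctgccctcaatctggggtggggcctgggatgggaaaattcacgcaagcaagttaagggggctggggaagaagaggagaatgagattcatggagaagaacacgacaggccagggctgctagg
The *H2-K1* and *H2-D1* promoters aligned over 240 columns, of which 211 (87.9%) were identical. Both held a kappa-B match, an interferon regulatory factor core, a site alpha core and CCAAT in that order, and their 2 kappa-B matches overlap each other by all but 1 base. The *B2m* promoter held the same 4 motifs with the interferon regulatory factor core upstream of kappa-B. Over 32851 mouse promoters of this length, the interferon regulatory factor core was found in 23.9%, kappa-B in 8.46%, TGACG in 20.8%, CCAAT in 37.4% and the gamma-activated site in 8.3%. Of the 8 matched promoters, 3, 3, 5, 6 and 1 held them, respectively. *Tap1* and *Psmb9* are transcribed away from each other from start sites 226 bases apart, so their promoter windows share 275 bases, and the *Tap1* sequence above serves for both. A match is a run of letters, and binding was not measured.

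Of the 10 genes, those on chromosome 17 lie in the MHC region, in the order *Tapbp* (33919478-33929290), *H2-K1* (33996012-34000619), *Psmb9* (34182030-34187330), *Tap1* (34187556-34197225), *Psmb8* (34198195-34201454), *Tap2* (34204479-34216321) and *H2-D1* (35263094-35267497). *B2m* lies on chromosome 2 (122147687-122153082), and *Psmb10* (105935728-105938392) and *Nlrc5* (94434335-94527272) lie on chromosome 8. *H2-K1* and *H2-D1* are close paralogues, and whether reads matching both were counted, dropped or split is not given in the sources used here, so the level of each is uncertain to that extent.

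On a per-length scale (rlog minus log2 of exonic kb), unstimulated WT BMDMs had *B2m* highest at 16.34, followed by *H2-D1* at 14.10 and *H2-K1* at 13.94. *Tapbp*, the tapasin gene, followed at 12.00, *Psmb10* at 11.41 and *Psmb8* at 10.88. *Tap1* at 9.71, *Tap2* at 9.54 and *Psmb9* at 9.25 lay close together, and *Nlrc5* was lowest at 7.62. The 3 genes of the surface molecule lay above all of those that supply and load its peptides. *H2-D1* and *H2-K1*, *Tap1* and *Tap2*, and *Tap2* and *Psmb9* overlapped between libraries, and every other pair of neighbours in this order was apart. At 6 hr *H2-K1* (14.79) stood above *H2-D1* (14.67), again with overlapping libraries, and the others kept their order, with *Psmb9* and *Nlrc5* now overlapping. The lengths are unions of exons over all annotated transcripts, so these levels and their order depend on the annotation. For *Psmb8* the 3381 exonic bases exceed even the span of its RefSeq gene (34198195-34201454), which lowers its value here.

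**Figure D1:**
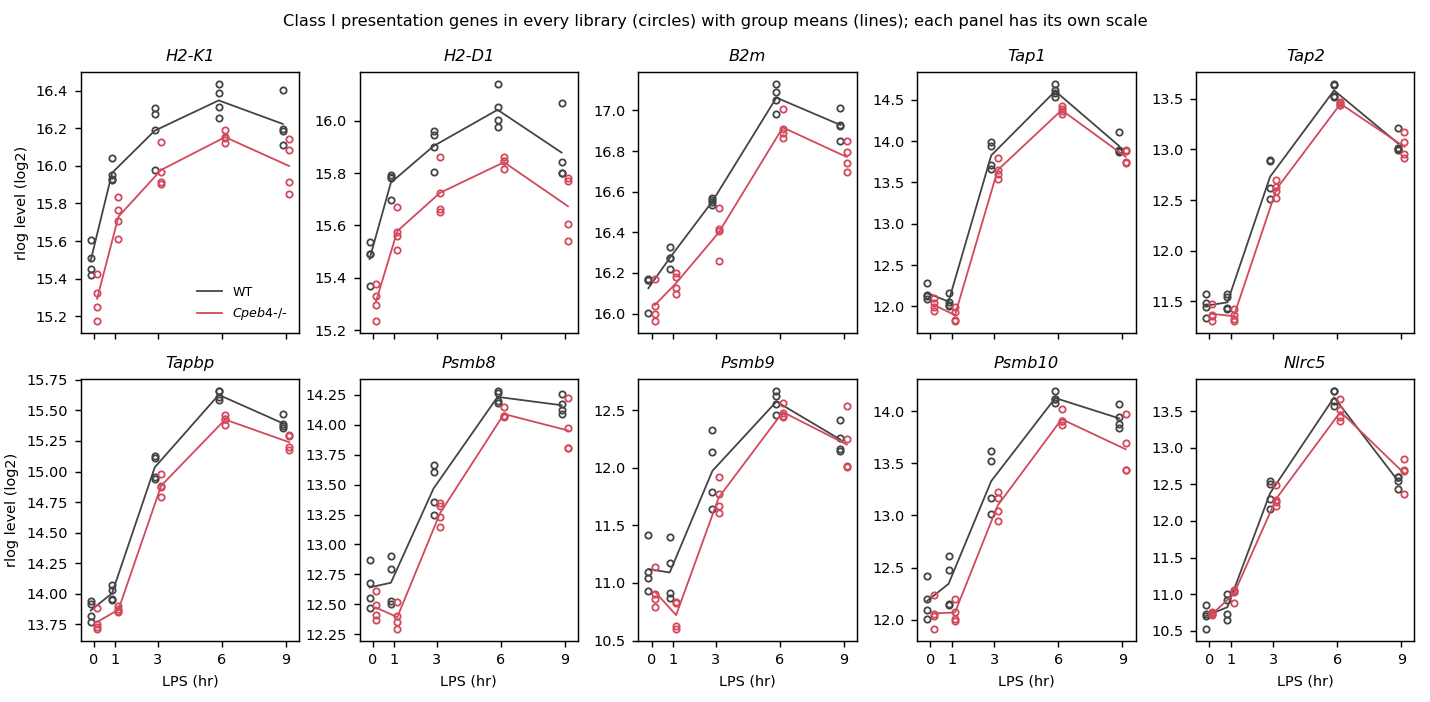
rlog value (log2) of the 10 genes by hours of LPS, 1 panel per gene, with 1 point per library and lines through the means of the 4 WT and 4 *Cpeb4*-/- libraries. Every gene peaks at 6 hr in both genotypes, and the *Cpeb4*-/- line lies below the WT line at most times.

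On the deposited scale LPS raised all 10 genes, although quantile normalization turned *H2-D1* negative at 3, 6 and 9 hr and *B2m* at 3 hr. In WT BMDMs 10 of 10 were called higher than at 0 hr at 3, 6 and 9 hr, beside 33.5%, 39.7% and 37% of all genes tested. In the libraries labelled *Cpeb4*-/- the counts were also 10 of 10 at 3, 6 and 9 hr, beside 33.7%, 38.4% and 35.7%. None was called lower, beside 40.2% of all genes at 6 hr in WT. The median change of the 10 genes in WT reached 0.13 after 1 hr and 1.00 after 3 hr, then 1.68 (6 hr) and 1.53 (9 hr). The median over all genes stayed between −0.0211 and 0.0247.

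The largest rise was that of *Nlrc5*, the transactivator. It stood at 10.85, 10.74, 10.53 and 10.70 in unstimulated WT mice 25, 69, 87 and 88, and at 13.63, 13.77, 13.57 and 13.77 after 6 hr. The groups were far apart, and the difference of 2.98 (SE 0.09) is a 7.91-fold increase. It also fell most after its peak, with 61.8% of its rise left at 9 hr.

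The transporter genes came next. *Tap1* had 12.09, 12.14, 12.29 and 12.13 at 0 hr and 14.53, 14.69, 14.62 and 14.58 at 6 hr in WT, a rise of 2.44 (SE 0.07) or 5.44-fold. *Tap2*, the gene of the other TAP chain, rose by 2.13 (SE 0.07), or 4.37-fold, with 0 hr libraries at 11.33 to 11.57 and 6 hr libraries at 13.52 to 13.65. At 3 hr they had reached 68.2% and 59.9% of this. *Tapbp* rose by 1.76 (SE 0.05), or 3.39-fold, from 13.77, 13.82, 13.95 and 13.92 to 15.59, 15.66, 15.65 and 15.61.

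The 3 catalytic subunits that turn a proteasome into an immunoproteasome rose together. *Psmb10* had 12.00, 12.09, 12.42 and 12.20 at 0 hr and 14.08, 14.12, 14.19 and 14.11 at 6 hr, a rise of 1.95 (SE 0.11) or 3.85-fold. *Psmb8* rose by 1.59 (SE 0.09), or 3.02-fold, and *Psmb9* by 1.45 (SE 0.12), or 2.74-fold. In all 3 the untreated WT libraries were spread more than those at 6 hr, with SDs of 0.175, 0.210 and 0.181 for *Psmb8*, *Psmb9* and *Psmb10* at 0 hr against 0.0489, 0.0902 and 0.0473 (n = 4 each). Mouse 87 was the highest of the 4 at 0 hr in each.

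The surface molecule changed least on the log2 scale. *B2m* rose by 0.94 (SE 0.05), or 1.91-fold, from 16.00, 16.17, 16.16 and 16.17 to 16.98, 17.09, 17.05 and 17.13. *H2-K1* rose by 0.85 (SE 0.07), or 1.80-fold, from 15.42, 15.51, 15.61 and 15.45 to 16.31, 16.44, 16.39 and 16.26. *H2-D1* rose by 0.57 (SE 0.06), or 1.48-fold, from 15.37, 15.49, 15.53 and 15.49 to 16.00, 16.14, 16.05 and 15.97. The 0 hr and 6 hr libraries of all 3 genes were apart.

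The size of all 10 rises depended on how libraries were scaled, above all that of these 3 smaller ones. *B2m* ranked between 10 and 22 among 20784 genes in the libraries, *H2-K1* between 19 and 46 and *H2-D1* between 29 and 50. The 100 genes of highest mean had a median change of 0.486 at 6 hr in WT, with 73 of 100 raised. Quantile normalization, which forces all libraries to one distribution, turned that median to −0.337, and *H2-D1* to −0.28 (called lower), while *H2-K1* went to 0.07 (not called) and *B2m* stayed called higher. In WT it left 7 of 10 genes called higher at 3 hr, 8 of 10 by 6 hr and 9 of 10 after 9 hr. In the libraries labelled *Cpeb4*-/- the count was 7 at 3 hr and 9 at both 6 and 9 hr. The share of all genes called under quantile normalization was not counted for comparisons of times. The median rise of the 10 genes at 6 hr in WT went from 1.68 to 0.969, whereas the median over all genes moved by less than 0.1. Which scale fits these very abundant transcripts better was not tested.

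**Figure D2:**
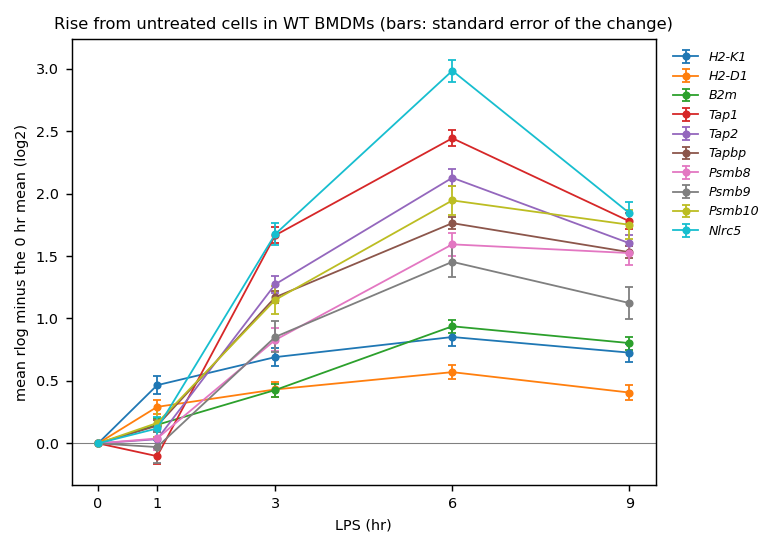
Mean rlog of the 10 genes in WT BMDMs minus the 0 hr mean (log2) by hours of LPS, with 1 line per gene (4 libraries per time). *Nlrc5* and *Tap1* rise most, *H2-D1* least, and *H2-K1* is highest at 1 hr. Bars are standard errors of the change.

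The times of the rise also differed between the genes. At 1 hr 4 of 10 were called higher in WT (*H2-K1*, *H2-D1*, *B2m* and *Tapbp*), beside 19.4% of all genes, and without WT mouse 25 only 2 were. In the libraries labelled *Cpeb4*-/- 3 of 10 were called higher (*H2-K1*, *H2-D1* and *Nlrc5*), beside 22.6%. Under quantile normalization none of these 7 calls remained. There 5 genes were called lower at 1 hr in WT (*H2-D1*, *B2m*, *Tap1*, *Tapbp* and *Psmb8*). In the libraries labelled *Cpeb4*-/- 7 were called lower (those 5, *Tap2* and *Psmb9*). The median of the 10 was −0.156 in WT and −0.219 in the libraries labelled *Cpeb4*-/-, beside −0.0374 and −0.0522 over all genes. Over the 100 genes of highest mean it was −0.224 and −0.198. *H2-K1* had reached 81.1% of its 6 hr rise at 3 hr and *H2-D1* 75.7%, whereas *B2m* had reached 45.6% and *Psmb8* 51.9%. Between successive times in WT, 10 of 10 were called higher at 3 hr than at 1 hr (29.3% of all genes) and 10 of 10 higher at 6 hr than at 3 hr (34.8%). From 6 to 9 hr 7 of 10 were called lower (29.5% of all genes), and 4 were without WT mouse 88. *Nlrc5* fell by 1.14 in that interval, *Tap1* fell by 0.67 and *Tapbp* fell by 0.23. *H2-K1*, *Psmb8* and *Psmb10* were not called, with differences of −0.13, −0.07 and −0.20. Under quantile normalization 3 of the 10 were called lower from 6 to 9 hr, *H2-D1*, *B2m*, *Tapbp* and *Psmb8* were called higher, and *H2-K1* (0.12) and *Psmb10* (0.12) were positive but not called. The median of the 10 went from −0.214 to 0.103 with it, and that of the 100 genes of highest mean from −0.199 to 0.0988. *H2-D1* also had negative differences from 1 to 3 and from 3 to 6 hr there.

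Most other genes of the same machinery, taken from lists, were also called higher at 6 hr on the deposited scale, but under quantile normalization some were called lower. Beside each list stand 39.7% of all genes called higher and 40.2% called lower at 6 hr in WT on the deposited scale. Of 7 peptide supply partners (the PA28 activator genes, a proteasome maturation factor and the constitutive catalytic subunits), 7 were called higher at 6 hr in WT, led by *Psme2*, a PA28 subunit, at 1.99 (SE 0.10). Quantile normalization left 3 higher and 1 lower. Of 11 other core proteasome subunits, 9 were called higher, with *Psma6* first at 1.67 (SE 0.11), and quantile normalization left 6 higher and 4 lower. Of 8 genes for peptide loading and trimming, 6 were called higher, with *Lnpep*, an aminopeptidase, first at 2.13 (SE 0.19), and quantile normalization left 4 higher and 4 lower. The list medians of 0.58, 0.52 and 0.73 were smaller than the 1.68 of the 10 genes.

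Of 17 other class I heavy chains and relatives, 15 were tested, 11 rose and 4 fell at 6 hr in WT, and these counts were the same under quantile normalization. *H2-M2* rose most, by 3.40 (SE 0.10). The 4 that fell were *Mr1*, *Hfe*, *Cd1d1* and *Fcgrt*, of which *Mr1*, which presents small metabolites, fell most (−1.46, SE 0.12). Their products do not show cytosolic peptides to CD8 T cells. The 11 that rose were not sorted by what their products present, so no contrast is drawn. *Hfe* takes part in iron handling, *Cd1d1* presents lipids and *Fcgrt* encodes the neonatal Fc receptor.

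Among 8 regulators of class I transcription, 6 rose and 2 fell at 6 hr in WT, with the same counts under quantile normalization. *Stat2*, part of the complex that carries the type I interferon signal, rose most (2.47, SE 0.06) and *Rfxap*, part of the RFX complex, fell most (−0.77, SE 0.05). *Irf1*, an interferon regulatory factor named here after its values were seen, was already 2.62 (SE 0.05) higher at 1 hr and 1.81 higher at 6 hr.

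The second question was whether *Cpeb4*-/- BMDMs differed from WT at the same time. At 6 hr 7 of the 10 genes were called lower in *Cpeb4*-/- and none higher, beside 9.92% of all genes called lower and 6.4% called higher. All 10 means were lower, with a median difference of −0.196, whereas the median over all genes was −0.0153. Each difference was small, at most 1.17-fold.

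*Tap1* had 14.53, 14.69, 14.62 and 14.58 in WT mice 25, 69, 87 and 88 and 14.33, 14.39, 14.42 and 14.36 in *Cpeb4*-/- mice 2, 3, 55 and 62. No *Cpeb4*-/- library reached the lowest WT library, and the difference was −0.23 (SE 0.05, adjusted p = 0.0058). *Tap2* was also called lower, at 13.44 to 13.46 in *Cpeb4*-/- against 13.52 to 13.65 (−0.13, SE 0.04, adjusted p = 0.0493). *Tapbp* had 15.59, 15.66, 15.65 and 15.61 in WT and 15.38, 15.43, 15.46 and 15.43 in *Cpeb4*-/-, again without overlap (−0.20, SE 0.04, adjusted p = 0.00953).

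Of the heavy chains, *H2-K1* had 16.31, 16.44, 16.39 and 16.26 in WT and 16.15, 16.12, 16.19 and 16.15 in *Cpeb4*-/- (−0.20, SE 0.05, adjusted p = 0.0276). *H2-D1* had 16.00, 16.14, 16.05 and 15.97 in WT and 15.81, 15.84, 15.86 and 15.85 in *Cpeb4*-/- (−0.20, SE 0.05, adjusted p = 0.019). Both were apart between the genotypes. Their partner *B2m* was not called, with 16.98 to 17.13 in WT and 16.86 to 17.01 in *Cpeb4*-/- (−0.15, SE 0.06, adjusted p = 0.119).

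*Psmb10* had 14.08, 14.12, 14.19 and 14.11 in WT and 13.90, 13.87, 13.91 and 14.02 in *Cpeb4*-/- (−0.20, SE 0.04, adjusted p = 0.0102). *Psmb8* was called lower too, at 14.07 to 14.15 in *Cpeb4*-/- against 14.18 to 14.28 (−0.14, SE 0.04, adjusted p = 0.0358). *Psmb9*, the third subunit, overlapped between the genotypes and was not called (−0.09, SE 0.05, adjusted p = 0.243). *Nlrc5* was as far apart as the called genes in its mean but more variable, with 13.57 to 13.77 in WT and 13.37 to 13.66 in *Cpeb4*-/- (−0.20, SE 0.07, adjusted p = 0.0682).

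**Figure D3:**
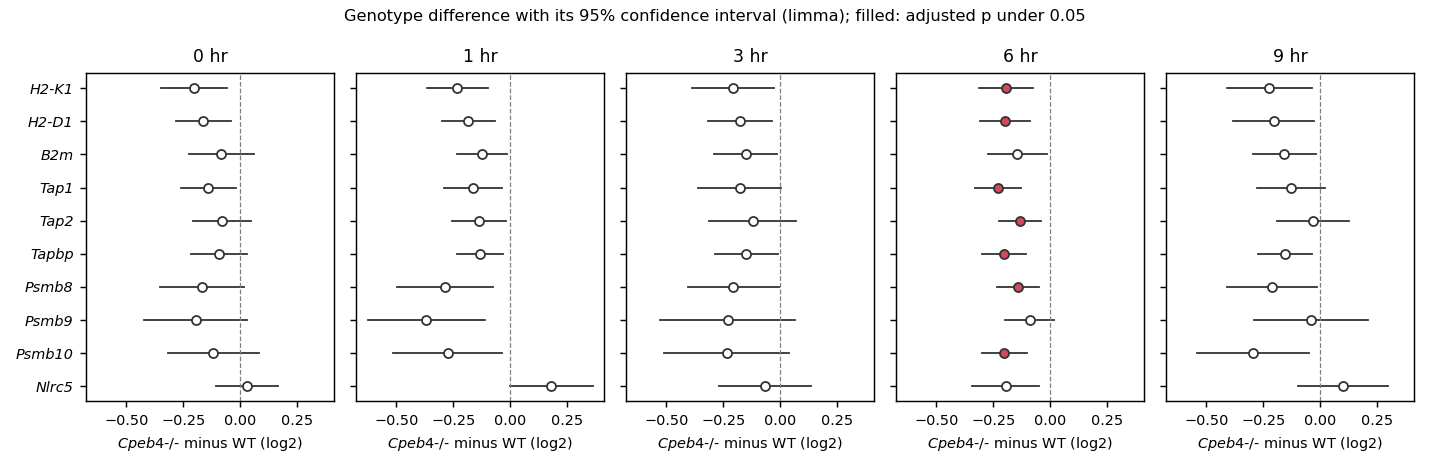
Difference of the mean rlog (log2), *Cpeb4*-/- minus WT, of the 10 genes at each time, with 95% confidence intervals from limma (4 against 4 libraries); filled points are called. Of the 50 differences 47 are below 0, and the filled points are 7 genes at 6 hr.

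The genotypes did not overlap at 6 hr for the same 7 genes, beside 12% of all genes with *Cpeb4*-/- entirely lower. With 4 against 4 libraries the exact two-sided permutation test gives 0.0286 for each of them, the smallest p it can give. All but *Psmb9*, which was at 0.00 in batch 1, were lower in both batches. The calls of *Tap1*, *Tapbp* and *Psmb10* held with each mouse left out in turn. *H2-D1* was not called without *Cpeb4*-/- mouse 2 or WT mouse 69, *H2-K1* without any of *Cpeb4*-/- mice 2, 3 and 62 and WT mice 69 and 87, *Tap2* without any *Cpeb4*-/- mouse or WT mouse 69 or 87, and *Psmb8* without any of *Cpeb4*-/- mice 2, 3 and 55 and WT mice 69, 87 and 88. *Nlrc5* was called lower without *Cpeb4*-/- mouse 55 (adjusted p = 0.0133) or WT mouse 87 (0.0475). The count of calls fell to 4 without *Cpeb4*-/- mouse 3 (7.31% of all genes lower) and to 3 without *Cpeb4*-/- mouse 2 (6.1%) or WT mouse 69 (6.97%). With the mouse as a random block over all 40 libraries, *Tap2*, *Psmb8* and *Psmb10* were no longer called (adjusted p = 0.219, 0.343 and 0.268) and *B2m* was (0.0251). After quantile normalization 0 of 10 were called with limma (2 at an unadjusted p under 0.05), and the median of the 10 was −0.0736 with 9 of 10 below 0.

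More of the abundant genes in the table were called lower than higher in *Cpeb4*-/- at 6 hr. Of 1614 other genes at least as abundant as the least abundant of the 10 (mean rlog 11.71), 24.5% were called lower and 6.01% higher, with a median of −0.0651 and 70.1% of differences below 0. Of the 100 genes of highest mean, 73 were below 0, with a median of −0.0913. Of the 8 macrophage marker genes 4 were called lower at 6 hr, *Csf1r* by −0.25, *Cd68* by −0.26, *Lyz2* by −0.38 and *Fcgr1* by −0.28. The summed level of the 8 was 19.24 to 19.32 in WT against 18.92 to 19.14 in *Cpeb4*-/-. That sum did not overlap between the genotypes at any time. It was taken over unlogged values, so *Lyz2*, with group means of up to 18.7, weighs most in it. The dendritic cell gene *Xcr1* was also called lower at 6 hr (−0.49), at 6.08 to 6.48 in *Cpeb4*-/- against 6.56 to 6.98 in WT, and no other non-macrophage marker tested was called then. The part of any of these in the differences of the 10 genes was not tested, and in bulk RNA fewer cells of a type and less RNA per cell cannot be told apart.

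At the other times no gene of the 10 was called by limma, but most means were lower in the libraries labelled *Cpeb4*-/-. Differences were negative in both batches for 9 of 10 genes at 0, 1 and 3 hr and for 7 at 9 hr. Of 1614 other genes with mean rlog of at least 11.71, 51.5%, 50.1%, 61.6% and 61.8% were below 0 at 0, 1, 3 and 9 hr. Under quantile normalization 9, 9, 10 and 7 of the 10 were below 0, with medians of −0.141, −0.182, −0.113 and −0.0683. The 10 genes are not independent, since 9 of them moved together within groups. At 0 hr 9 of 10 means were lower (median −0.13) and 3 genes had an unadjusted p under 0.05, beside 17.6% of all genes at that threshold. In either direction 1.31% of all genes were called. No gene was without overlap, beside 5.04% of all genes. *H2-K1* had 15.42, 15.51, 15.61 and 15.45 in WT and 15.32, 15.17, 15.43 and 15.25 in the libraries labelled *Cpeb4*-/- (−0.20, SE 0.07), and only mouse 55 reached into the WT range.

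At 1 hr 9 of 10 means were lower (median −0.175), and those 9 had an unadjusted p under 0.05, beside 35.3% of all genes at that threshold. Adjusted p ran from 0.0679 to 0.146 over the 10, and 1.91% of all genes were called. Without overlap were 6 genes (*H2-K1*, *H2-D1*, *B2m*, *Tap1*, *Tapbp* and *Psmb9*), beside 8.11% of all genes. *Psmb9* had the largest difference, from 10.87, 10.91, 11.40 and 11.18 to 10.83, 10.62, 10.82 and 10.60 (−0.37, SE 0.11). *Nlrc5* was the exception at 0.18 (SE 0.08). With the mouse as a random block over 40 libraries 7 were called lower at 1 hr, in a fit that called 15.6% of all genes lower. Without *Cpeb4*-/- mouse 2 it was 2 of the 10 (2.41% of all genes lower), and without WT mouse 69 it was 3 (8.91%).

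At 3 hr all 10 means were lower (median −0.179), and 5 had an unadjusted p under 0.05, beside 23.4% of all genes, with 3.68% called. *B2m* was the gene without overlap (6.58% of all genes), at 16.54 to 16.57 in WT and 16.26 to 16.52 in the libraries labelled *Cpeb4*-/-. The block gave 4 calls lower at 3 hr (5.47% of all genes lower), and 4 were called lower without WT mouse 88 (8.94%). At 9 hr 9 of 10 were lower (median −0.156), and 6 had an unadjusted p under 0.05, beside 26.9% of all genes, with 7.91% called. *H2-D1* and *Tapbp* did not overlap (8.51% of all genes). The block gave 4 calls lower at 9 hr (8.72% of all genes lower) and batch as a covariate 2 (6.18%). Without *Cpeb4*-/- mouse 2, the highest of its group for *Psmb8*, *Psmb9* and *Psmb10*, 5 genes were called lower and *Nlrc5* higher, in a fit that called 16.8% of all genes lower and 18.4% higher.

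The response to LPS was then compared between genotypes, as the change from 0 hr in *Cpeb4*-/- minus that in WT. No gene of the 10 was called by limma at 1, 3, 6 or 9 hr, beside 0.00763%, 0.206%, 2.94% and 1.76% of all genes. None had an unadjusted p under 0.05 either, beside 1.57%, 5.03%, 15.1% and 12% of all genes. The lowest adjusted p at 6 hr was that of *Nlrc5* (0.404), whose rise differed by −0.23 (SE 0.13). The rise of *Tap1* from 0 to 6 hr was 2.44 in WT and 2.35 in *Cpeb4*-/-, and that of *Psmb9* was 1.45 and 1.56. These contrasts share the 0 hr libraries, and the intervals allow small differences in either direction.

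The lists of partner genes were compared between the genotypes at 6 hr in the same way, beside 9.92% of all genes called lower and 6.4% higher. Of 15 tested other heavy chains and relatives, 7 were called lower and none higher, led by *H2-Q6* at −0.70 (SE 0.11, adjusted p = 0.00161), and 5 stayed lower under quantile normalization. Some of these genes are paralogues too, and how reads matching more than 1 of them were counted is not given. The part of the mixed strain background in these differences was not tested. Of the 8 regulators, *Stat2* (−0.20, SE 0.06, adjusted p = 0.0447) and *Irf9* (−0.14, SE 0.04, adjusted p = 0.023) were lower, and neither was called under quantile normalization. These genes encode partners in one interferon-activated complex. One peptide supply partner, *Psmb5*, a constitutive catalytic subunit, was lower (−0.29, SE 0.08, adjusted p = 0.0291), and it was not called under quantile normalization. One loading gene, *Tapbpl*, a relative of tapasin, was lower (−0.24, SE 0.04, adjusted p = 0.00282) on both scales. Of 11 other core proteasome subunits limma called 0, with 2 at an unadjusted p under 0.05, and quantile normalization called 2 higher. *Ifnb1*, the interferon beta gene, was called lower at 3 hr (−0.66, adjusted p = 0.0306) in the libraries labelled *Cpeb4*-/-. Its mean was also lower in them at 1 hr (−0.71) and 9 hr (−0.58), with overlapping libraries, and neither difference was called. The differences of *Ifnb1* at 0 hr (0.12) and 6 hr (0.10) were positive and not called.

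**Figure D4:**
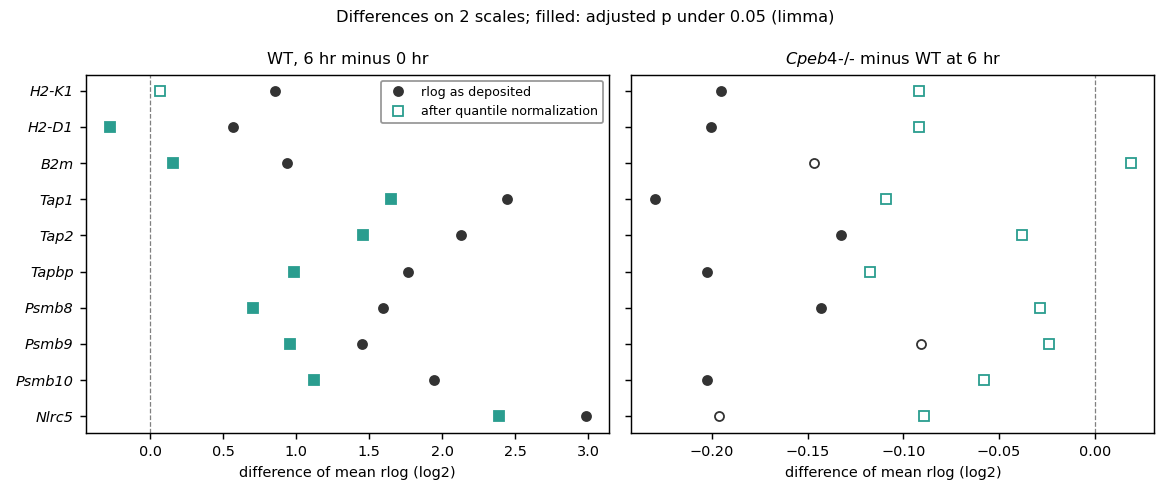
Difference of the mean rlog (log2) on 2 scales, as deposited (circles) and after quantile normalization (squares), for WT 6 hr minus 0 hr and for *Cpeb4*-/- minus WT at 6 hr, with filled symbols called by limma. Quantile normalization lowers every rise on the left, *H2-D1* to −0.28, and no square on the right is filled.

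Within groups, 9 of the 10 genes went up and down together from library to library. After the group mean was taken from each value, the 36 pairs without *Nlrc5* had Pearson r of 0.42 to 0.98 with a median of 0.80 over the 40 libraries, as a description, since the libraries come from 8 mice and share depth and scaling. *Psmb8* and *Psmb10* were the most alike (0.98), followed by *Psmb9* and *Psmb10* (0.98), and the lowest value was that of *B2m* and *Psmb10* (0.42). *H2-K1* and *H2-D1* were at 0.89, and *Tap1* and *Tap2* at 0.91. *Nlrc5* did not follow, with 9 pairs between −0.37 and 0.13, of which 7 were negative.

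**Figure D5:**
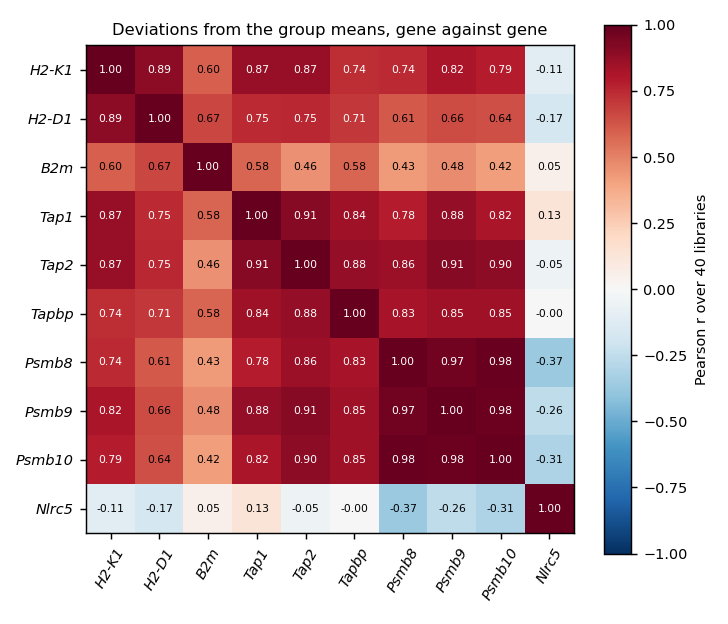
Pearson r over 40 libraries between the deviations of each pair of genes from their group means, with red for positive and blue for negative values. The 3 immunoproteasome genes form the reddest block (0.97 to 0.98), and the *Nlrc5* row runs from −0.37 to 0.13.

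Some libraries carried this shared shift plainly. In the library of *Cpeb4*-/- mouse 2 at 9 hr, 9 of the 9 genes other than *Nlrc5* were above the group mean, by 0.17 on average, while *Nlrc5* was at −0.28. In WT mouse 69 at 9 hr all 9 were above, by 0.14, and in WT mouse 87 at 0 hr all 9 were above, by 0.14, with *Nlrc5* at −0.17. In WT mouse 88 at 3 hr none of the 9 was above, and the mean deviation was −0.19. Whether other genes shared these shifts was not tested. Over all genes, genotype calls at 9 hr went from 1029 to 4575 without *Cpeb4*-/- mouse 2 and to 457 without WT mouse 69. They went from 481 to 2584 at 3 hr without WT mouse 88 and from 171 to 143 at 0 hr without WT mouse 87.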

How the data were processed

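RNA-seq of 40 BMDM libraries was analysed from the table the authors deposited, in which each value is a log2 (rlog) value. The authors aligned 50-bp reads from poly(A) RNA to mm10 with STAR 2.3.0e, counted them per gene with featureCounts and transformed the counts with the rlog function of DESeq2. The rlog shrinks low counts toward a gene's mean, so differences of low genes are understated. Strand and multimapping settings were not given in the sources used here.

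Genotypes were compared per time with limma 3.58.1 (R 4.3.3, trend, 8 libraries), and times and genotype-by-time interactions in one fit of 10 group means over 40 libraries, without a pseudocount. Genes with a mean rlog under log2 of 5 were dropped. Adjustment was Benjamini-Hochberg over all genes tested, with calls under 0.05. The scripts were tested on simulated data. Promoter motifs were searched with Python 3.11.15. Figures were drawn with matplotlib 3.10.9.

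Mouse numbers pair libraries within a genotype, because each mouse gave all 5 times. Deviations from group means correlated at a median r of 0.29 between libraries of a mouse (over 0.1 in 68 of 80 pairs) and of −0.0907 between mice (240 pairs). No mouse number is shared by the genotypes.

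The 10 genes and the gene lists were chosen with earlier results of these data known. Named beside the 10 were the called gene with the largest rise and that with the largest fall of each list in WT at 6 hr and between genotypes at 6 hr, and the 3 genes most like each of the 10. Alternatives were other filters, variance models, quantile normalization, batch, the mouse as a block and leaving out each mouse. Exonic lengths came from the union of annotated exons.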

Additional observations from a re-analysis of the deposited data

Results flagged for a closer look

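Of 100 sets of 4 libraries (10 genes in 10 groups), 7 held a library far from the others by Dixon's test at 95%, beside about 5 in 100 by chance. *Tap1* in WT at 9 hr was 14.11 in mouse 69 and 13.87, 13.87 and 13.90 in the others. *Tap2* in that library was 13.22, against 13.00, 13.01 and 13.01. *H2-D1* in that library was 16.07, against 15.80, 15.80 and 15.84. These 3 values come from 1 library, and *H2-K1* was also highest in it.

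In WT mouse 25, *H2-D1* at 1 hr was 15.70, against 15.78, 15.78 and 15.79, and *B2m* at 0 hr was 16.00, against 16.16, 16.17 and 16.17. *Psmb8* at 6 hr was 14.15 in *Cpeb4*-/- mouse 62 and 14.07 in each of the others. *Nlrc5* at 1 hr was 10.88 in *Cpeb4*-/- mouse 2, against 11.03, 11.04 and 11.06.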

How the results depend on the processing

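The count of genes called lower in *Cpeb4*-/- at 6 hr moved from 7 to 3 without a filter on low values (3.62% of all genes lower). It moved to 0 under quantile normalization (7.56%) and to 3 with all 40 libraries and no mouse term (9.46%). At 1, 3 and 9 hr, where it was 0, it was 5, 2 and 4 with all 40 libraries and no mouse term (15.1%, 5.2% and 8.4%). With the mouse as a random replicate block it was 7, 4 and 4 at 1, 3 and 9 hr (15.6%, 5.47% and 8.72%), and 5 at 6 hr (9.9%). Batch as a covariate gave 2 at 9 hr (6.18%). Leaving out each mouse in turn gave 0 to 3 genes at 1 hr, 0 to 4 at 3 hr, 3 to 7 at 6 hr and 0 to 5 at 9 hr. The causes were not tested. Without single mice, 2 to 4 genes were called higher at 1 hr in WT and 2 to 4 in *Cpeb4*-/-, 8 to 10 between 1 and 3 hr, 8 to 10 between 3 and 6 hr, and 4 to 7 were called lower between 6 and 9 hr. In the paired fits over time, the block added calls of *B2m* at 1 hr in *Cpeb4*-/- (adjusted p = 0.0103) and of *H2-K1* from 6 to 9 hr in WT (0.0406) and changed no other call among the 10 genes there.

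Quantile normalization left 0 genes called higher at 1 hr in both genotypes and 3 called lower between 6 and 9 hr in WT. It turned the sign of *H2-D1* at 1, 3, 6 and 9 hr, to −0.13, −0.21, −0.28 and −0.093 in WT and to −0.15, −0.14, −0.18 and −0.0083 in *Cpeb4*-/-. It turned *B2m* to −0.25 and −0.10 at 1 and 3 hr in WT and to −0.22 and −0.10 in *Cpeb4*-/-, *Tapbp* at 1 hr to −0.19 and −0.23, and *Psmb8* at 1 hr in WT to −0.25. Between successive times in WT, *H2-D1* turned to −0.078 (3 against 1 hr) and −0.063 (6 against 3 hr), and from 6 to 9 hr *H2-D1*, *B2m*, *Tapbp* and *Psmb8* turned to 0.18, 0.19, 0.087 and 0.23, and the uncalled *H2-K1* and *Psmb10* to 0.12 and 0.12. The interaction gave 0 called genes in each alternative run, with all 560 alternative values on the main side of the threshold.

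Over all genes, calls between genotypes ranged over the alternatives from 44 to 414 at 0 hr (171 as reported), 40 to 4323 at 1 hr (251), 76 to 2584 at 3 hr (481), 1288 to 2331 at 6 hr (2129) and 387 to 4575 at 9 hr (1029). Interaction calls ranged from 0 to 8 at 1 hr (1), 5 to 72 at 3 hr (27), 84 to 1032 at 6 hr (385) and 89 to 654 at 9 hr (231). The lowest counts at 0, 1 and 3 hr were without *Cpeb4*-/- mouse 3, that at 9 hr without WT mouse 25, and those of the interaction at 3 hr without *Cpeb4*-/- mouse 3 and at 6 and 9 hr without *Cpeb4*-/- mouse 62. The highest were without WT mouse 88 at 3 hr, without *Cpeb4*-/- mouse 2 at 9 hr, and with the mouse as a block at 0 and 1 hr and for the interaction at 3, 6 and 9 hr. With 4 mice a group and no counts in the table, standard errors of the genotype differences ran from 0.04 to 0.13 on the log2 scale, so differences of 0.1 were not detectable for most of the 10 genes.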

Other observations

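Genes outside the class I set whose values ran most closely with each of the 10 over the 40 libraries are given as a description, with Pearson r. The points share 8 mice and 5 times, so genes raised by LPS with a like time course come out high. *Psme1*, the other PA28 subunit, was nearest to *Psmb8* (0.997) and *Psmb10* (0.997), each followed by *Oas1a*, an antiviral oligoadenylate synthetase, and *Ube2l6*, the conjugating enzyme for ISG15. *Psmb9* was nearest to *Oas1a* (0.984), then *Stard3* and *Psme1*. *Tap1* was nearest to *Ifi47* (0.996), an interferon-induced GTPase, then *Tor3a* and *Xaf1*. *Tap2* was nearest to *Dhx58* (0.997), which encodes the RNA sensor LGP2, then *Parp12* and *Lipg*. *Tapbp* was nearest to *AW112010* (0.995), then *Slco3a1* and *Oas1g*.

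*Nlrc5* was nearest to *Tdrd7* (0.995), *Stat3* and *Tor1aip1*, and its best match within the set, *Tap2* (0.977), ranked 102 among 13102 genes. *B2m* was nearest to *Ifngr2* (0.984), a chain of the interferon gamma receptor, *Rab5c* and *Pla2g16*. The heavy chains were nearest to each other (0.974). Outside the set *H2-K1* was nearest to *Snx20* (0.969), *Snrnp35* and *Ebi3*, and *H2-D1* to *Nr1h2* (0.939), *Rhog* and *Snx20*.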
